A study of Mus musculus with 9 samples.

Results

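The genes described here were 10 feedback inhibitors of the ERK pathway, namely Spry1, Spry2, Spry4, Spred1, Spred2, Spred3, Dusp4, Dusp5, Dusp6 and Il17rd, out of 55704 genes in the table. They were chosen by name, and all 10 were measured above the filter on low values. The choice does not hold every Dusp gene. Dusp1, Dusp2, Dusp7, Dusp8, Dusp9, Dusp10 and Dusp16 were read with other negative regulators. RNA was sequenced from cultured neural stem cells (NSCs) of the subventricular zone of C57BL/6 mice aged 8 to 9 weeks, with 2 female and 2 male mice pooled for each isolation. The NSCs were grown in suspension for at least 3 passages and then plated, and 3 groups of 3 libraries were made. The bFGF/EGF-treated NSCs (bFGF and EGF at 20 ng/mL each) were collected at day 0, after 16 to 18 hours on the plate. The bFGF/BMP4-treated NSCs received 20 ng/mL bFGF and 20 ng/mL BMP4 for 6 days, and the BMP4-treated NSCs received 20 ng/mL BMP4 with neither bFGF nor EGF for 6 days. The comparison of the day 6 groups therefore differed in bFGF alone, whereas every difference from bFGF/EGF also included 6 days in culture. The 3 libraries of a group are described as biological replicates, and the sources do not say whether they came from separate isolations. In bulk RNA, fewer cells of a type and less RNA per cell cannot be told apart.

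ERK is the last kinase of the cascade that runs from FGF and EGF receptors through Ras, Raf and MEK, and it drives transcription of genes that in turn restrain the cascade. Sprouty and Spred proteins act upstream of ERK at the level of receptor adaptors, Ras and Raf, while dual-specificity phosphatases (Dusp) remove the activating phosphates from ERK itself. FGF and EGF are the usual mitogens of cultured NSCs, and BMP4 is used to bring these cells into quiescence.

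Values are FPKM, fragments scaled to gene length and to the mapped fragments of the library, so levels can be set side by side between genes. Each difference is a log2 fold change on the log2(FPKM + 0.1) scale, given with its standard error (SE), which understates the change of low genes. A gene was said to be past the threshold when its adjusted p was at most 0.05 and its change at least 2-fold.

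The libraries held 15892854 to 17419822 fragments on genes, as rebuilt from the FPKM. Across 20207 genes, log2 values correlated at 0.95 to 0.964 between libraries of 1 group and at 0.81 to 0.915 between groups. Id1, a direct target of BMP signalling, was at 17.1 to 28.4 FPKM in bFGF/EGF, 105 to 186 FPKM in bFGF/BMP4 and 177 to 309 FPKM in BMP4, so the groups given BMP4 lay above the group without it. Sox2, a stem cell marker, was between 121 and 202 FPKM in all 9 libraries. Nes, another NSC marker, was at 145 to 157 FPKM in bFGF/EGF but at 2.96 to 3.94 FPKM in bFGF/BMP4 and 10.7 to 20.7 FPKM in BMP4. The other NSC markers of the list went different ways. In the same order of groups, means were 676.7, 166.5 and 891.7 FPKM for Vim and 654.7, 271.9 and 483.8 FPKM for Fabp7. They were 41.6, 24.4 and 80.3 FPKM for Sox9 and 73.6, 130 and 113 FPKM for Slc1a3. The 6 NSC markers summed to 1705 to 1812, 677 to 778 and 1490 to 1932 FPKM. Of markers of other cells, the summed FPKM of 6 astrocyte genes was 59.2 to 81.4, 649 to 743 and 3640 to 4515 in bFGF/EGF, bFGF/BMP4 and BMP4, and Gfap alone reached 2181 to 3038 FPKM in BMP4. Between the day 6 groups, 4 of the 6 astrocyte genes were higher in BMP4 past the threshold (Gfap, Aqp4, Aldoc and Gja1), Slc1a2 was lower (65.5 against 175 FPKM), and S100b did not pass (40.1 against 55.1 FPKM). Their part in the results on the inhibitors was not tested. The 6 microglial and 6 vascular markers summed to at most 1.75 and 5.41 FPKM, and Aif1, Csf1r, Cx3cr1, Ptprc, Cldn5 and Cdh5 averaged below 0.1 FPKM in every group.

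Promoters of 8 of the 10 genes were found in the RefSeq table (build GRCm38.p6), as 250 bases before to 50 bases after the gene start. Those of Dusp6 and Spry1, the inhibitors with the largest falls between the day 6 groups, and of Dusp5, the inhibitor that went the other way, are printed 5′ to 3′ on the strand of the gene. Capitals mark CArG boxes, the motif bound by serum response factor. The windows are chr10:99262981-99263280, chr3:37639697-37639996 and chr19:53528895-53529194, all on the plus strand.
Dusp6 promoter: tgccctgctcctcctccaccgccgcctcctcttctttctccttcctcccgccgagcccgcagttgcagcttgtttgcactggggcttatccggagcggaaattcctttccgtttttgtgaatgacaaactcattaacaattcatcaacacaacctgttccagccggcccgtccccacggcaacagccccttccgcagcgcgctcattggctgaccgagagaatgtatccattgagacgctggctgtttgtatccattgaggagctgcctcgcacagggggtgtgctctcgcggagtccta
Spry1 promoter: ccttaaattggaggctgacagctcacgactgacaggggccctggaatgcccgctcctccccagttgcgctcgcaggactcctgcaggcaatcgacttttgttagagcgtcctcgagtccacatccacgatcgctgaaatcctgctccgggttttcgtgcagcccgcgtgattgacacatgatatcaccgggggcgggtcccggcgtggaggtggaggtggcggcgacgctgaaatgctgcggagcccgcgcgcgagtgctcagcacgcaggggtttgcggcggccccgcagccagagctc
Dusp5 promoter: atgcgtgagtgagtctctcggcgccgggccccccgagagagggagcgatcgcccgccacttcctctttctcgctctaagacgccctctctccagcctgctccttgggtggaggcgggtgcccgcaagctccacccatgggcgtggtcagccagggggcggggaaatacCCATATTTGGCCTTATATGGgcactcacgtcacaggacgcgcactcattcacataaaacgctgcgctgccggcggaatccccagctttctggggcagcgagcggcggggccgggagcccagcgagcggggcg

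Both strands were searched for 3 motifs of growth factor signalling, the ETS motif CCGGAAG, the AP-1 motif TGANTCA and the CRE motif TGACGTCA. They occurred in 8.86%, 7.81% and 1.79% of 32851 promoters of this length, and in 0 of the 8 inhibitor promoters. This says only that these letters are not in these windows. The CArG box was searched after the sequences had been read and occurred in 1.63% of all promoters. Among the inhibitors it was found in Dusp5 only, as 2 adjacent copies that begin 82 and 72 bases before the start and do not overlap. With the motif chosen after reading, its share of all promoters gives no test for Dusp5. Its part in the levels of Dusp5 was not tested. Promoters of Spry2, Spred1, Spred2, Spred3 and Il17rd held none of the 4 motifs. Spry4 and Dusp4 are named without a sequence.

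The first comparison asked how the inhibitors differed between NSCs held with BMP4 alone and with bFGF in addition. In BMP4-treated NSCs, 8 of the 10 inhibitors were lower than in bFGF/BMP4-treated NSCs past the threshold, against 5.14% of all genes tested, and 1 (Dusp5) was higher, against 8.41%. Dusp6 was 29.1-fold lower, Spry1 25.3-fold and Spry4 9.83-fold, while Spry2 and the 3 Spred genes were 2.50-fold to 3.30-fold lower. The median log2 fold change of the 10 genes was -1.72, and that of all genes tested was 0. The libraries did not overlap for any inhibitor, with 9 lower in BMP4 and 1 higher, where 18.3% and 20.5% of all genes tested were so placed.

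Sprouty genes encode membrane-associated proteins that bind adaptors and Raf and dampen receptor tyrosine kinase signalling. Spry1 (ENSMUSG00000037211, GRCm39 chromosome 3, 37693897 to 37698755, plus strand) was at 62.2, 58.8 and 35.3 FPKM in bFGF/EGF replicates 1 to 3, at 41.5, 94.4 and 117 FPKM in bFGF/BMP4 and at 2.44, 3.93 and 2.69 FPKM in BMP4. All 3 BMP4 libraries were far below the other 6, and the bFGF/EGF and bFGF/BMP4 libraries overlapped. In BMP4 against bFGF/BMP4, Spry1 differed by -4.66 on the log2 scale (SE 0.37, limma with Benjamini-Hochberg adjusted p = 2.24e-05). Spry1 was the only inhibitor with its highest mean in bFGF/BMP4 (84.3 ± 38.7 FPKM, SD, n = 3, against 52.1 ± 14.7 in bFGF/EGF). That difference of 0.61 (SE 0.37) did not pass the test (limma adjusted p = 0.206). Without bFGF/BMP4 replicate 1, its lowest library in that group, it was 1.05 and passed (limma adjusted p = 0.0142).

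Spry2 (ENSMUSG00000022114, chromosome 14, 106128766 to 106136446, minus strand) was the most abundant inhibitor in BMP4. It was at 105, 117 and 79.8 FPKM in bFGF/EGF, at 86.2, 73.4 and 89.8 FPKM in bFGF/BMP4 and at 20.8, 25.5 and 30.1 FPKM in BMP4. The BMP4 libraries lay below all others, and the other groups overlapped. The log2 fold change was -1.71 (SE 0.18, limma adjusted p = 0.000112) between the day 6 groups and -0.27 (SE 0.18, limma adjusted p = 0.253) between bFGF/BMP4 and bFGF/EGF.

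Spry4 (ENSMUSG00000024427) was highest in bFGF/EGF, lower in bFGF/BMP4 and lowest in BMP4. It was at 59.9, 49.98 and 31.6 FPKM in bFGF/EGF, at 10.1, 14.0 and 23.1 FPKM in bFGF/BMP4 and at 1.26, 1.03 and 2.21 FPKM in BMP4. No library of one group reached the range of another. Spry4 was lower in bFGF/BMP4 than in bFGF/EGF by a log2 fold change of -1.61 (SE 0.36, limma adjusted p = 0.00399), and lower in BMP4 than in bFGF/BMP4 by -3.30 (SE 0.36, limma adjusted p = 0.000141).

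With these changes the makeup of the mRNA of these 3 Sprouty genes shifted, as the plot of shares by library shows. The summed level of the 3 genes was 200 ± 46.3, 183 ± 46.0 and 29.99 ± 5.23 FPKM (SD, n = 3) in bFGF/EGF, bFGF/BMP4 and BMP4. Spry2 made up 50.9% ± 4.15 of that sum in bFGF/EGF and 84.9% ± 1.15 in BMP4, with 83.7% to 86% in the BMP4 libraries and at most 62.6% in the other 6. Spry1 made up 25.8% ± 1.66, 44.3% ± 12.3 and 10.2% ± 2.61, and Spry4 23.3% ± 2.58, 8.38% ± 1.5 and 4.93% ± 1.48.

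**Figure D1:**
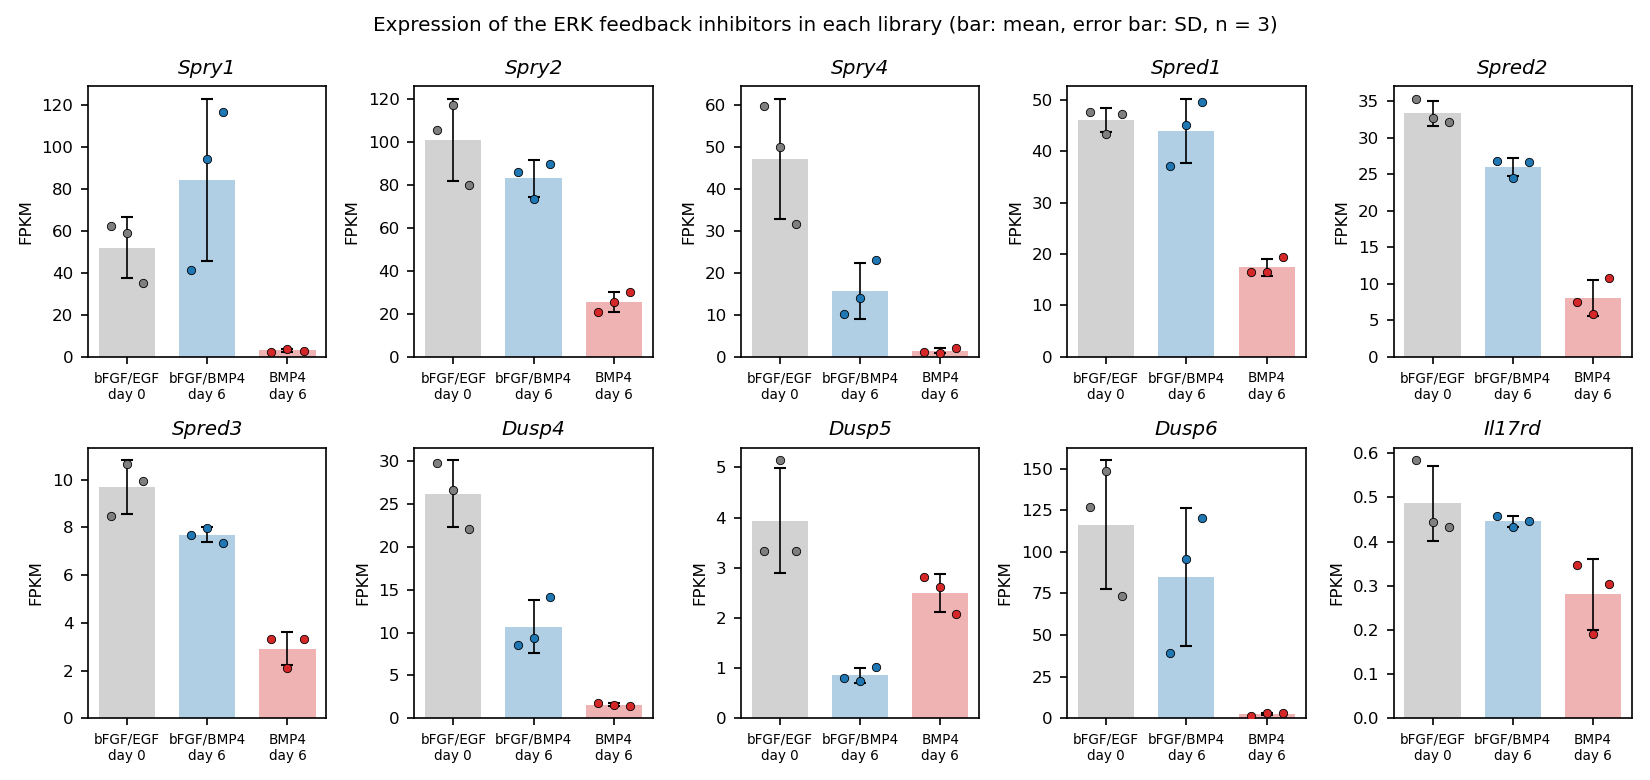
FPKM (y axis, linear, from 0) of each inhibitor in bFGF/EGF day 0, bFGF/BMP4 day 6 and BMP4 day 6 NSCs, with 1 point for each library, bars for the mean and error bars for the SD (n = 3). The BMP4 points lie below all others for 9 genes, while for Dusp5 the lowest points are those of bFGF/BMP4 (0.738 to 1.02 FPKM).

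Spred proteins are Sprouty relatives with an EVH1 domain that bring neurofibromin to the membrane and thereby lower active Ras. Spred1 (ENSMUSG00000027351, chromosome 2, 116951524 to 117018277, plus strand) was at 47.7, 43.3 and 47.2 FPKM in bFGF/EGF, at 37.2, 45.1 and 49.5 FPKM in bFGF/BMP4 and at 16.5, 16.5 and 19.4 FPKM in BMP4. The 6 libraries with bFGF overlapped and the 3 without it were lower. The log2 fold change between the day 6 groups was -1.32 (SE 0.13, limma adjusted p = 7.19e-05).

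Spred2 (ENSMUSG00000045671, chromosome 11, 19874355 to 19974442, plus strand) was at 35.4, 32.8 and 32.1 FPKM in bFGF/EGF, at 26.9, 24.5 and 26.7 FPKM in bFGF/BMP4 and at 7.57, 5.83 and 10.7 FPKM in BMP4. Its 3 groups did not overlap, and the BMP4 libraries were lowest. It differed by -1.72 (SE 0.19, limma adjusted p = 0.000142) between the day 6 groups on the log2 scale. Spred3 (ENSMUSG00000037239, chromosome 7, 28857984 to 28869836, minus strand) was the least abundant Spred gene, at 8.48, 10.7 and 9.94 FPKM in bFGF/EGF, 7.70, 7.99 and 7.36 FPKM in bFGF/BMP4 and 3.32, 2.13 and 3.33 FPKM in BMP4. Its groups were ordered as those of Spred2 and did not overlap either, with a log2 fold change of -1.39 (SE 0.18, limma adjusted p = 0.000407) between the day 6 groups.

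The Spred genes together summed to 89.2 ± 2.40, 77.6 ± 5.90 and 28.4 ± 4.58 FPKM (SD, n = 3) in bFGF/EGF, bFGF/BMP4 and BMP4. Their proportions moved less than those of the Sprouty genes. Spred1 was 51.7% ± 1.5, 56.4% ± 4.03 and 61.9% ± 5.01 of the sum in the 3 groups, and Spred3 stayed between 8.69% and 12.3% in every library.

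Dusp6 encodes a cytoplasmic phosphatase that is selective for ERK, and Dusp6 was the most abundant inhibitor in bFGF/EGF. Dusp6 (ENSMUSG00000019960, chromosome 10, 99086564 to 99103361, plus strand) was at 127, 148 and 73.5 FPKM in bFGF/EGF, at 39.2, 95.5 and 120 FPKM in bFGF/BMP4 and at 1.67, 3.00 and 3.23 FPKM in BMP4. Every BMP4 library was below every other library, and bFGF/BMP4 replicate 1 was the lowest of the 6 libraries with bFGF. The log2 fold change was -4.87 (SE 0.42, limma adjusted p = 3.72e-05) between the day 6 groups. Between bFGF/BMP4 and bFGF/EGF the value was -0.54 (SE 0.42, limma adjusted p = 0.324), with overlapping libraries.

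Dusp4 encodes a nuclear phosphatase of MAP kinases. Dusp4 (ENSMUSG00000031530, chromosome 8, 35274442 to 35287048, plus strand) was at 29.8, 26.7 and 22.1 FPKM in bFGF/EGF, at 8.50, 9.35 and 14.2 FPKM in bFGF/BMP4 and at 1.78, 1.60 and 1.39 FPKM in BMP4. As with Spry4, the 3 groups did not overlap. The log2 fold change was -1.31 (SE 0.20, limma adjusted p = 0.000423) in bFGF/BMP4 against bFGF/EGF. It was -2.64 (SE 0.20, limma adjusted p = 1.75e-05) in BMP4 against bFGF/BMP4.

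Dusp5 encodes a nuclear phosphatase that is selective for ERK, and Dusp5 did not follow the others. It (ENSMUSG00000034765, chromosome 19, 53517532 to 53530862, plus strand) was at 3.33, 5.14 and 3.34 FPKM in bFGF/EGF, at 0.805, 0.738 and 1.02 FPKM in bFGF/BMP4 and at 2.81, 2.62 and 2.08 FPKM in BMP4. The groups did not overlap, and bFGF/BMP4 was the lowest. These levels rested on 140 to 201, 28 to 37 and 85 to 113 fragments for each library. The log2 fold change was 1.45 (SE 0.22, limma adjusted p = 0.00116) in BMP4 against bFGF/BMP4, and with a pseudocount of 1 it was 0.92, under the 2-fold threshold. From bFGF/EGF to bFGF/BMP4 it was -2.06 (SE 0.22, limma adjusted p = 4.48e-05). A level in bFGF/BMP4 below both other groups, past the threshold in both comparisons, was found in 1.91% of all genes tested and in no other inhibitor.

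The 3 Dusp genes among the inhibitors summed to 147 ± 42.3 FPKM in bFGF/EGF, 96.5 ± 44.1 FPKM in bFGF/BMP4 and 6.73 ± 0.479 FPKM in BMP4 (SD, n = 3). Other Dusp genes are outside this sum, such as Dusp7, at means of 17.7, 20.8 and 9.58 FPKM in the same order. Dusp6 made up 78.7% ± 4.09 and 86.7% ± 5.14 of the sum in the groups with bFGF and 38.8% ± 11 in BMP4. Dusp5, at 2.77% ± 0.654 and 1.04% ± 0.540 with bFGF, made up 37.4% ± 6.97 in BMP4, where its range of 31.1% to 44.9% overlapped that of Dusp6 (26.7% to 48.2%).

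**Figure D2:**
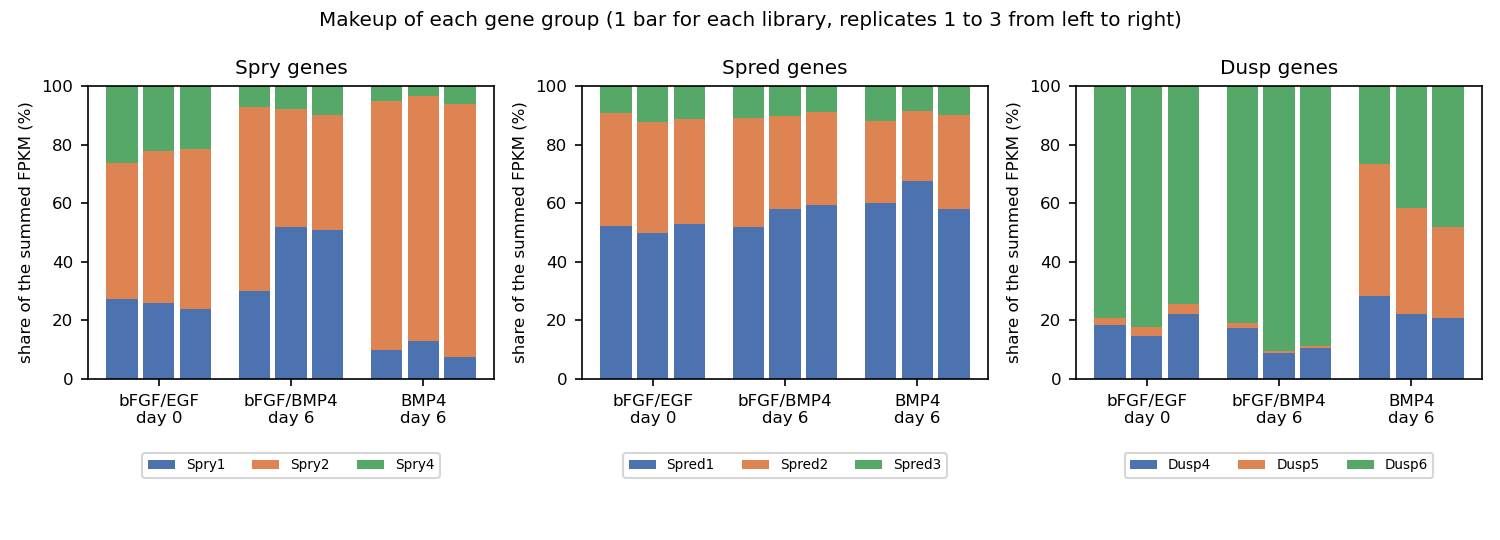
Share of each gene (y axis, percent) in the summed FPKM of the Spry, Spred and Dusp genes among the inhibitors. Each library has 1 stacked bar (replicates 1 to 3 of each group from left to right). In BMP4 the Spry bars are mostly Spry2 (83.7% to 86%) and the Dusp bars are split among all 3 genes.

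Il17rd (ENSMUSG00000040717, chromosome 14, 26760889 to 26829243, plus strand), also called Sef, encodes a membrane protein that holds active ERK outside the nucleus. It was the lowest of the 10, at 0.584, 0.443 and 0.433 FPKM in bFGF/EGF, at 0.459, 0.433 and 0.446 FPKM in bFGF/BMP4 and at 0.348, 0.191 and 0.304 FPKM in BMP4. The BMP4 libraries were below the other 6, but the log2 fold change of -0.54 between the day 6 groups (SE 0.28, limma adjusted p = 0.223) did not pass the test. The same held against bFGF/EGF, at -0.64 (SE 0.28, limma adjusted p = 0.0815).

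The second comparison, of bFGF/BMP4-treated with bFGF/EGF-treated NSCs, asked how the inhibitors stood when EGF was exchanged for BMP4 and bFGF remained. It shares the bFGF/BMP4 libraries with the first comparison. Spry4, Dusp4 and Dusp5 were lower in bFGF/BMP4 past the threshold, 3 of 10 genes against 14.1% of all genes tested, and 0 of 10 were higher, against 16.5% (0 also at an unadjusted limma p under 0.05 and by limma-voom). The libraries of 5 genes did not overlap, all lower in bFGF/BMP4 (Spry4, Spred2, Spred3, Dusp4 and Dusp5), where 27.5% of all genes tested were so placed, and 0 were higher without overlap, against 30.2%. The median log2 fold change of the 10 genes was -0.34 and that of all genes tested was 0.06. The 5 genes with overlapping libraries were Spry1, Spry2, Spred1, Dusp6 and Il17rd.

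The values in the third comparison, of BMP4 with bFGF/EGF, share both groups with the first 2 comparisons and are no separate evidence. In it, 8 inhibitors were lower in BMP4 past the threshold (15.4% of all genes tested) and 0 were higher (21.3%; also 0 at an unadjusted limma p under 0.05 and by limma-voom), with log2 fold changes from -1.40 for Spred1 to -5.41 for Dusp6. Dusp5 differed by -0.61 (SE 0.22, limma adjusted p = 0.0398), which was under 2-fold. The libraries of all 10 genes were lower in BMP4 without overlap, where 27.8% of all genes tested were so placed and 32.6% were higher. The 8 genes were those lower than bFGF/BMP4, and a level in BMP4 below both other groups, past the threshold in both, was found in 2.75% of all genes tested.

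**Figure D3:**
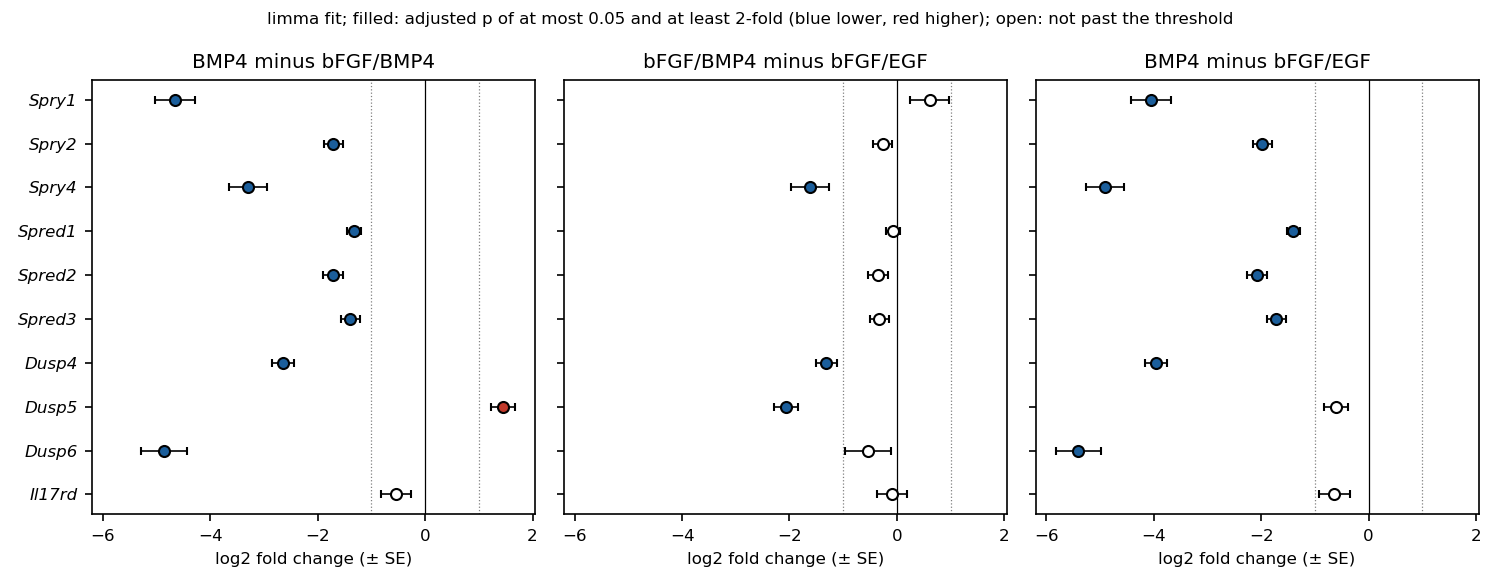
log2 fold change (x axis, points, with bars for the SE) of each inhibitor in the 3 comparisons, with dotted lines at 2-fold and filled points past the threshold (blue lower, red higher). The left and right panels hold 8 blue points each and the middle panel holds 3.

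Libraries of a group differed most for Spry1, Spry4 and Dusp6. In bFGF/EGF, replicate 3 was the lowest library for 7 of the 10 genes, and there the inhibitors had a median deviation of -0.22 from their group means on the log2 scale, against -0.02 for all genes tested. In bFGF/BMP4, replicate 1 was the lowest library for 5 genes and replicate 3 the highest for 7. These differences stood within groups and left the 8 lower genes between BMP4 and bFGF/BMP4 past the threshold whichever library was left out.

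The genes whose pattern over the 9 libraries was most like that of each inhibitor were sought by the root mean square difference of centred log2 values among the other genes with a mean of at least 1 FPKM (12946 genes, and 12947 for Il17rd). For Dusp6 they were Etv4 (0.552), Etv5 (0.609) and Spry1 (0.633). For Spry1 they were Adam12 (0.431), a transcript without a gene name (0.525) and Jag1 (0.544). Spry4 was closest to Olig2 (0.349), Ccnb1 (0.398) and Cdca7l (0.483), and Dusp4 to Pbk (0.170), Loricrin (0.273) and Spc24 (0.307).

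Among the remaining inhibitors, Spry2 was nearest to Tmem121 (0.199), Ptn (0.215) and Irf2bpl (0.217), and Spred2 to Dscam (0.223), Spry2 (0.225) and Zfp608 (0.226). Spred1 was nearest to Slc7a5 (0.0978), Clic4 (0.0984) and Abhd2 (0.130), and Spred3 to Pkd1 (0.0976), Polg (0.127) and Zfp608 (0.135). Il17rd was nearest to Brd3 (0.0955), Tnrc6c (0.0989) and Cdk12 (0.102). Dusp5 was nearest to Gas1 (0.196), Phgdh (0.196) and Sfrp1 (0.200). Their means were lowest in bFGF/BMP4 (12.7, 39.3 and 0.681 FPKM) and higher in bFGF/EGF (43.6, 184 and 3.42 FPKM) and BMP4 (27.5, 108 and 2.28 FPKM). As they were chosen for likeness to Dusp5 in these libraries, the shared order of means is no separate evidence.

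Other genes of the pathway were read from fixed lists. Of all genes tested, 5.14% were lower and 8.41% higher past the threshold in BMP4 than in bFGF/BMP4. Against bFGF/EGF, the shares were 14.1% and 16.5% in bFGF/BMP4 and 15.4% and 21.3% in BMP4. The counts of the lists are to be read beside these shares. Of 15 other ERK targets, 4 were lower and 3 higher in BMP4 than in bFGF/BMP4 past the threshold, with a list median of 0.01. The ETS factors Etv4 and Etv5, which FGF signalling induces, fell the most. Etv4 was at 37.0, 41.2 and 32.4 FPKM in bFGF/EGF, at 36.0, 35.2 and 37.0 FPKM in bFGF/BMP4 and at 0.357, 0.656 and 0.957 FPKM in BMP4, a log2 fold change of -5.66 (SE 0.25, limma adjusted p = 1.34e-06) between the day 6 groups. Etv5 was at 210, 244 and 165 FPKM, at 165, 154 and 175 FPKM and at 6.85, 7.81 and 14.4 FPKM in the same order, with -4.15 (SE 0.25, limma adjusted p = 5.89e-06). In bFGF/BMP4 replicate 1, where Dusp6 and Spry1 were low, neither Etv4 nor Etv5 was its group's lowest.

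The 3 targets higher in BMP4 than in bFGF/BMP4 were Ier3, Junb and Fos, of which Fos was named after its values were seen. Other early response genes of the list did not pass, with log2 fold changes of -0.41 for Egr1, -0.06 for Myc, 0.51 for Egr2, 0.68 for Fosl1 and 0.62 for Ier2. Ier3, an immediate early gene, had means of 12.8, 1.17 and 8.55 FPKM in bFGF/EGF, bFGF/BMP4 and BMP4 and a log2 fold change of 2.70 (SE 0.37, limma adjusted p = 0.000625) between the day 6 groups. For Junb, an AP-1 subunit, it was 1.48 (SE 0.35, limma adjusted p = 0.0124), and the adjusted p was 0.0521 and 0.0513 without BMP4 replicates 1 and 2. Against bFGF/EGF, 9 of the 15 targets were lower and 1 higher in bFGF/BMP4, and 9 were lower and 3 higher in BMP4. Ccnd1, the cyclin of the G1 phase, and Egr1, an immediate early factor, changed the most in bFGF/BMP4 (-5.88 and -4.14 on the log2 scale), while Epha4 was higher in both day 6 groups (2.83 and 3.04).

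Of 25 receptors, adaptors and kinases of the cascade, 0 were lower and 1 was higher in BMP4 than in bFGF/BMP4 past the threshold, with a median of 0.01. At an unadjusted limma p under 0.05, 5 were lower and 7 higher, and by limma-voom 0 were lower and 1 higher. The 1 gene past the threshold was the FGF receptor Fgfr2, at means of 17.6 and 8.72 FPKM. Its log2 fold change of 1.01 (limma adjusted p = 0.0173) was 0.94 on the TPM scale. It lost its limma adjusted p without bFGF/BMP4 replicate 1 or 3 or BMP4 replicate 1 or 3 (0.0575, 0.0559, 0.0554 and 0.0516). Egfr, the EGF receptor, was at 42.8 ± 1.94 FPKM in bFGF/EGF and at 6.32 ± 0.885 and 6.34 ± 1.24 FPKM (SD, n = 3) in bFGF/BMP4 and BMP4. Against bFGF/EGF, 3 of the 25 were lower and 3 higher in bFGF/BMP4 (14.1% and 16.5% of all genes tested). In BMP4, 1 was lower and 4 higher (15.4% and 21.3% of all genes tested). By limma-voom the counts were 3 lower and 1 higher in bFGF/BMP4, and 2 lower and 3 higher in BMP4. Fgfr2 rose the most of the 25 against bFGF/EGF, where its mean was 1.32 FPKM. Its log2 fold change was 2.7 in bFGF/BMP4 (limma adjusted p = 1.78e-05) and 3.7 in BMP4 (limma adjusted p = 1.62e-06). The kinase gene Rps6ka1 fell by 1.76 in bFGF/BMP4, and Map2k1, which encodes a MEK kinase, was higher by 1.02. That value was 0.91 by limma-voom, 0.99 with median-ratio scaling, and 0.93 to 0.97 without bFGF/EGF replicate 1 or 3 or bFGF/BMP4 replicate 2 or 3, all under 2-fold.

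Among 13 other negative regulators tested, 3 were lower in BMP4 than in bFGF/BMP4, namely Dusp1 (-1.67), Lrig1 (-1.48) and Dusp7 (-1.07), and 0 were higher (2 at an unadjusted limma p under 0.05, 0 by limma-voom). Dusp1, a stress-inducible phosphatase, and Lrig1, a receptor inhibitor, were higher in bFGF/BMP4 than in bFGF/EGF, by 1.71 and 1.52 on the log2 scale. Dusp1 means were 7.93, 26.5 and 8.14 FPKM and Lrig1 means were 72.7, 209 and 75.1 FPKM in bFGF/EGF, bFGF/BMP4 and BMP4. In bFGF/BMP4 against bFGF/EGF, 3 of the 13 were lower and 4 higher, and Dusp10 and Dusp2 fell the most (-2.81 and -2.65, the latter -0.79 with a pseudocount of 1). In BMP4 against bFGF/EGF, 3 were lower and 0 higher (2 higher at an unadjusted limma p under 0.05, 0 by limma-voom). Of 8 partner proteins of Sprouty and Spred, 0 were called between the day 6 groups in either direction (2 lower and 1 higher at an unadjusted limma p under 0.05, 0 by limma-voom). Against bFGF/EGF, Cav1 (-1.60) and Siah2 (-1.06) were lower in bFGF/BMP4 and Siah2 (-1.06) in BMP4. In bFGF/BMP4, Siah2 was at -0.97 and -0.996 without bFGF/EGF replicates 1 and 2, and in BMP4 at -0.98 without bFGF/EGF replicate 1 and -0.97 without BMP4 replicate 1, just under 2-fold.

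**Figure D4:**
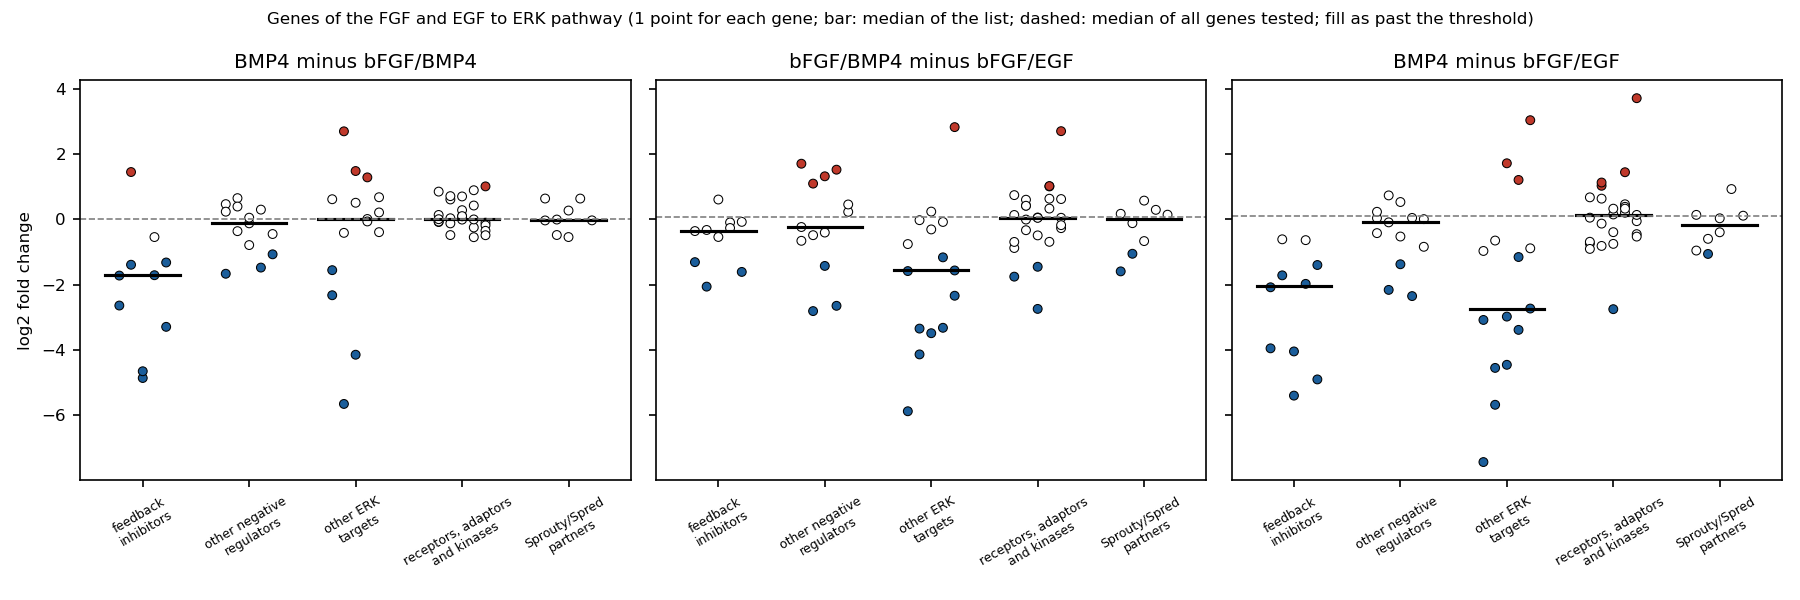
log2 fold change (y axis) of each gene in 5 lists of the pathway in the 3 comparisons, with 1 point for each gene, a bar for the list median, a dashed line for the median of all genes tested, and blue or red points for genes lower or higher past the threshold. In the left panel the inhibitors have a median of -1.72, and the other 4 lists have medians near 0.

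Antisense genes share exon bases with 5 of the inhibitors, and whether the counting used strand is not given in the sources used here. Gm42922 covers 19.0% of the exon bases of Spry1 and was at most 0.245 FPKM, Gm50394 covers 22.4% of those of Dusp5 and was at most 0.177 FPKM, and Gm34921 covers 2.8% of those of Dusp6 and was at most 0.139 FPKM. Ggn covers 3.1% of the exon bases of Spred3 and was at 0.750 to 2.13 FPKM, a level near that of Spred3 in BMP4. Gm62623 (Spry2), Gm56965 (Dusp6) and Gm73445 (Spred3), which cover 11%, 20.2% and 3.2%, were not analysed here.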

How the data were processed

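The 9 RNA-seq libraries came from mouse NSCs in 3 groups of 3. Per the methods and the submitters' processing notes, the authors cleaned reads with fastp 0.19.7, aligned them with HISAT2 2.0.5 to mm39 and counted with featureCounts 1.5.0-p3. The annotation release and the strand setting are not given in the sources used here. The authors deposited FPKM values. The authors tested counts with DESeq2. The study lists raw counts in a supplementary table, which was not used here, since only the deposited files were analysed. As their unit is FPKM, limma 3.58.1 (R 4.3.3) was used here, with its trend option on log2(FPKM + 0.1), without a block, over all 9 libraries and the 20207 genes with a mean of at least 0.1 FPKM, with Benjamini-Hochberg adjustment over all of them. The threshold was an adjusted p of at most 0.05 and a change of at least 2-fold. The procedure was run on simulated counts with the same spread set for every gene, which does not measure its error in these libraries.

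Whole fragment numbers were rebuilt for all 30860 genes above 0, as the smallest that fit, so totals may be slightly low. A limma-voom fit on them called 2992, 6582 and 7709 genes in the 3 comparisons, against 2738, 6174 and 7400. Positions are from GENCODE vM39 (GRCm39), and promoters are from RefSeq (GRCm38.p6). Alternatives were other pseudocounts, filters, scalings and thresholds, a replicate block, and leaving out each library. The text names all 10 inhibitors, from each other list the 2 top risers and 2 top fallers among genes past the threshold, for each comparison, the 3 nearest genes of each inhibitor, cell markers and overlapping genes. Dusp7, Fos and the targets that did not pass were outside that rule and were named after their values were seen. Some genes under the rule are given without a value for every comparison in which they ranked. Fold changes describe 3 libraries a group, and their number limits the precision. The genes and lists were chosen with earlier results of these data known.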

Additional observations from a re-analysis of the deposited data

How the results depend on the processing

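Calls on the inhibitors changed little. Lower calls stayed at 8 of 10 between BMP4 and bFGF/BMP4 under every alternative run, and the 1 higher call (Dusp5) became 0 with a pseudocount of 1. From bFGF/EGF to bFGF/BMP4, 0 higher calls became 1 (Spry1) without bFGF/BMP4 replicate 1, so leaving out 1 library gave 0 to 1. Il17rd passed the threshold against bFGF/EGF (-1.08) with quantile normalization, which moved the median of all genes by -0.14 there. Reversed values all lay near 0 and passed no test, in bFGF/BMP4 against bFGF/EGF. Quantile normalization gave 0.018 for Spred1 and 0.0888 for Etv4. Leaving out 1 library gave -0.169 to 0.0377 for Spred1 (above 0 without bFGF/BMP4 replicate 1), -0.159 to 0.0208 for Il17rd (bFGF/EGF replicate 1) and -0.114 to 0.0583 for Etv4 (bFGF/EGF replicate 2). The cause was not tested. Calls over all genes were 2738, 6174 and 7400 in the order BMP4 against bFGF/BMP4, bFGF/BMP4 against bFGF/EGF and BMP4 against bFGF/EGF. A pseudocount of 1 gave 1449, 3544 and 4364, and no fold threshold gave 4271, 9819 and 11096. A minimum mean of 1 FPKM, which tests fewer genes, gave 1800, 4387 and 4989. Same-numbered libraries correlated at -0.08 to 0.13 in their deviations, and different-numbered ones at -0.15 to 0.08. As these are deviations from means of 3 libraries, they cannot show whether the numbers pair libraries by isolation. With a replicate block the counts were 2612, 6127 and 7383 genes, and 9, 3 and 8 inhibitors. Depth limits Dusp5 most among the inhibitors past the threshold, with 28 to 37 fragments in bFGF/BMP4, while SEs were largest for Dusp6, Spry1 and Spry4.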
